A study of Bubalus bubalis with 2 samples.

Results

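Cholesterol is built from acetyl-CoA through the mevalonate pathway and a chain of sterol enzymes, or is taken up from lipoproteins, and steroid-forming cells convert it to hormones in mitochondria and the endoplasmic reticulum. The synthesis genes are switched on together by the SREBP transcription factors, which the escort protein SCAP carries out of the endoplasmic reticulum when sterols are scarce and which INSIG proteins hold back when sterols are plentiful. Ovarian estradiol peaks around estrus, whereas progesterone from the corpus luteum dominates diestrus, so genes that make or convert steroids are of interest in a comparison of these stages. Saliva receives steroids from blood, and salivary glands carry some steroid-converting enzymes.

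The genes described here are 46 of the 20905 rows of a gene table. They were chosen by name, as 30 symbols of cholesterol and steroid synthesis together with every row named HSD3B, HSD11B or HSD17B with a number, which gave 16 hydroxysteroid dehydrogenase genes. All 30 symbols had a row. The 46 genes comprise 15 genes of cholesterol synthesis, 4 regulators of the SREBP pathway, 3 genes of cholesterol uptake and transport, and 24 genes of steroid conversion.

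The study sequenced cell-free total RNA of saliva from water buffalo of the Murrah dairy breed, with 1 library taken at estrus, the stage of sexual receptivity, and 1 at diestrus, the luteal stage. The comparison asks which salivary transcripts differ between these stages. The labels name no treatment, and the age of the animals and whether animals were pooled are not given in the sources used here. With 1 library per stage there is no spread between animals and no test, so every difference below has no replicate check and describes these 2 libraries.

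Values are in FPKM, a fragment count normalised for transcript length and library size. Steps among the FPKM values of short loci showed that 1 fragment on 1 kb of effective transcript length equalled 0.232 FPKM at estrus and 1.25 FPKM at diestrus, which makes estrus the deeper library by a factor of 5.38 on the authors' scaling. A level of 3 fragments per kb stood at 0.696 FPKM at estrus and 3.75 FPKM at diestrus, and values under it rest on few fragments unless the transcript is long. FPKM summed to 1016100 at estrus and 521566 at diestrus. Ratios are log2((estrus FPKM + 1)/(diestrus FPKM + 1)), a scale that shrinks the differences of low genes, and a gene was counted when its mean over both libraries was at least 1 FPKM.

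The library labels name saliva, but few marker genes of salivary secretory cells were above 0. Of 31 marker symbols 16 had a row and 12 of these were listed at 0 in both libraries, among them AQP5, LPO and PIGR, and the list summed to 5521 FPKM at estrus and 1932 FPKM at diestrus, mostly CST6. Of 15 leukocyte markers 10 were at 0 in both, PTPRC among them, with sums of 20.6 FPKM at estrus and 26.7 FPKM at diestrus. All 20 fibroblast markers were above 0 in both libraries, and they summed to 42901 FPKM at estrus and 21150 FPKM at diestrus. The ratio of these sums, 2.03, was close to the 1.95 of the FPKM sums of all genes. The median log2 ratio of the fibroblast markers was 0.18 as deposited and -0.78 with equal FPKM sums. Oral squamous markers summed to 30366 FPKM at estrus, nearly all of it KRT6A, and to 3384 FPKM at diestrus, and 10 of their 15 counted genes were at least 2-fold lower at estrus. The part of these cell types in the results below was not tested, and in such bulk RNA fewer contributing cells and less RNA per cell cannot be told apart.

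Of the 46 genes 28 were counted, 8 were above 0 with a mean under 1 FPKM, and 10 were listed at 0 in both libraries. Among the counted genes 11 were at least 2-fold higher at estrus, 9 were at least 2-fold lower and 8 lay between. Over all 8269 counted genes of the table, 31.3% were at least 2-fold higher at estrus and 33.1% were at least 2-fold lower, and of the 28 cholesterol and steroid genes 39.3% were higher and 32.1% were lower, close to the background. A gene can pass the filter through 1 library alone, and the background shares were taken over genes that passed the same filter. With equal FPKM sums 8 of the 28 were higher and 12 lower, against 19.1% and 45.9% of all counted genes. The median log2 ratio of the counted cholesterol and steroid genes was 0.62, and that of all counted genes was -0.02. In the plot of levels by library, the dots of the estrus library lie on either side of those of the diestrus library in every group but the SREBP regulators.

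**Figure D1:**
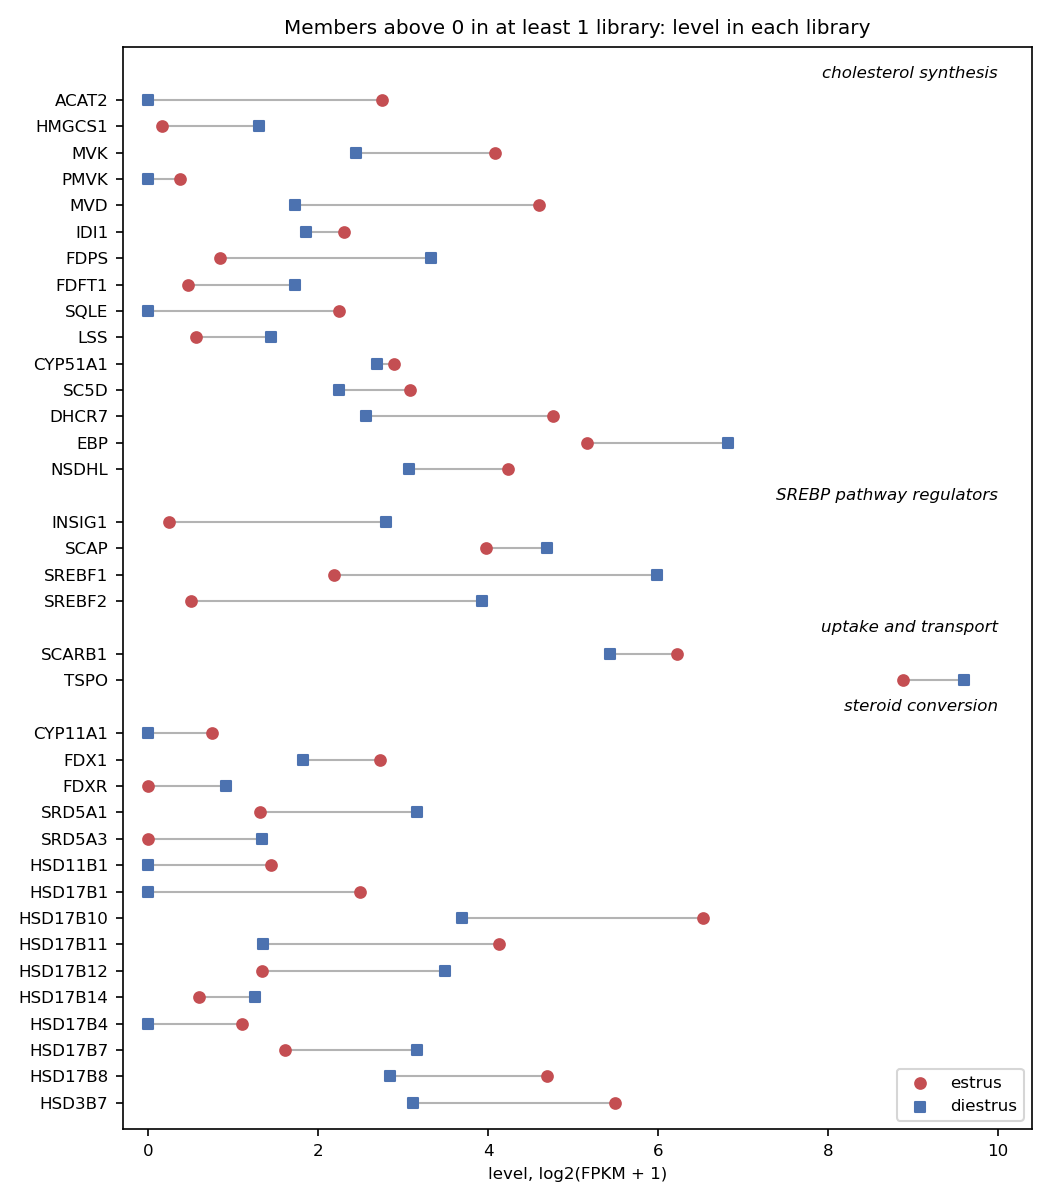
Level of each gene above 0 in at least 1 library, as log2(FPKM + 1) on the horizontal axis, with 1 red dot for the estrus library and 1 blue square for the diestrus library, joined by a grey line and grouped by role. A mark at the left edge is a listed 0. SREBF1, SREBF2 and INSIG1 lie far to the left at estrus, HSD17B10, HSD3B7, MVD and DHCR7 lie to the right at estrus, and TSPO is the most abundant of these genes in both libraries.

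Regulators of the SREBP pathway had lower values at estrus. All 4 were counted, 3 of them were at least 2-fold lower at estrus, none was higher, and their median log2 ratio was -2.99. Of all counted genes 33.1% were at least 2-fold lower at estrus, and 4 genes are few to set against that share. SREBF1, which encodes the SREBP form tied mainly to fatty acid synthesis, lies on chromosome 19 at 35234637 to 35250672 in the table's coordinates, whose genome build is not given in the sources used here. It stood at 3.57 FPKM at estrus, against 62.2 FPKM at diestrus, a log2 ratio of -3.79. These values correspond to 15.4 fragments per kb at estrus and 49.8 at diestrus, so SREBF1 had fewer fragments per kb at estrus although that library was the deeper. By rank among all rows, SREBF1 was number 5233 at estrus and number 1028 at diestrus.

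SREBF2, which encodes the main activator of cholesterol synthesis genes, lies on chromosome 5 at 113377699 to 113414729. It stood at 0.423 FPKM at estrus, against 14.2 FPKM at diestrus, a log2 ratio of -3.42. The estrus value amounts to 1.82 fragments per kb and the diestrus value to 11.4, so SREBF2 too had fewer fragments per kb in the deeper library, although its estrus level is poorly determined. INSIG1, the sterol-sensitive anchor that holds SCAP in the endoplasmic reticulum and is itself an SREBP target, stood at 0.180 FPKM at estrus and 5.96 FPKM at diestrus, with a log2 ratio of -2.56. It held 0.777 fragments per kb at estrus and 4.77 at diestrus. SCAP, the escort of the SREBPs, stood at 14.7 FPKM at estrus, against 24.8 FPKM at diestrus, and its log2 ratio of -0.72 was within 2-fold. All 4 genes were thus lower at estrus. Equal upper quartiles and equal FPKM sums both scale the estrus values down. A gene lower at estrus therefore keeps that direction under both by construction. With equal FPKM sums SCAP also passed 2-fold, at -1.59.

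Other genes that act on SREBPs lay on both sides as deposited. Of 9 such genes with a row 6 were counted, of which 1 was at least 2-fold higher at estrus, 2 were lower and 3 lay between. That is 16.7% higher and 33.3% lower, against 31.3% and 33.1% of all counted genes, and 6 genes are few. Their median log2 ratio was -0.051. That median was -0.31 with equal upper quartiles and -0.79 with equal FPKM sums, where 0 genes were higher and 3 lower. The proteases that release SREBPs in the Golgi apparatus differed in direction, with MBTPS1 at 11.1 FPKM at estrus and 21.5 FPKM at diestrus, and MBTPS2 at 6.45 FPKM at estrus and 1.62 FPKM at diestrus. MBTPS1 was within 2-fold (-0.90), and the diestrus value of MBTPS2 lies under 3 fragments per kb, so this contrast is poorly determined. SYVN1, a ubiquitin ligase of the endoplasmic reticulum, stood at 2.69 FPKM at estrus, against 18.9 FPKM at diestrus. The sterol-sensing nuclear receptors NR1H2 (53.9 FPKM at estrus, 30.7 FPKM at diestrus) and NR1H3 (17.4 FPKM at estrus, 9.20 FPKM at diestrus) were within 2-fold and higher at estrus as deposited, a direction that turned with equal FPKM sums (-0.14 and -0.04). MYLIP, a ubiquitin ligase switched on by these receptors, was lower at estrus at 0.422 FPKM, against 2.27 FPKM at diestrus. Both MYLIP values lie under 3 fragments per kb, so its difference is poorly determined.

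**Figure D2:**
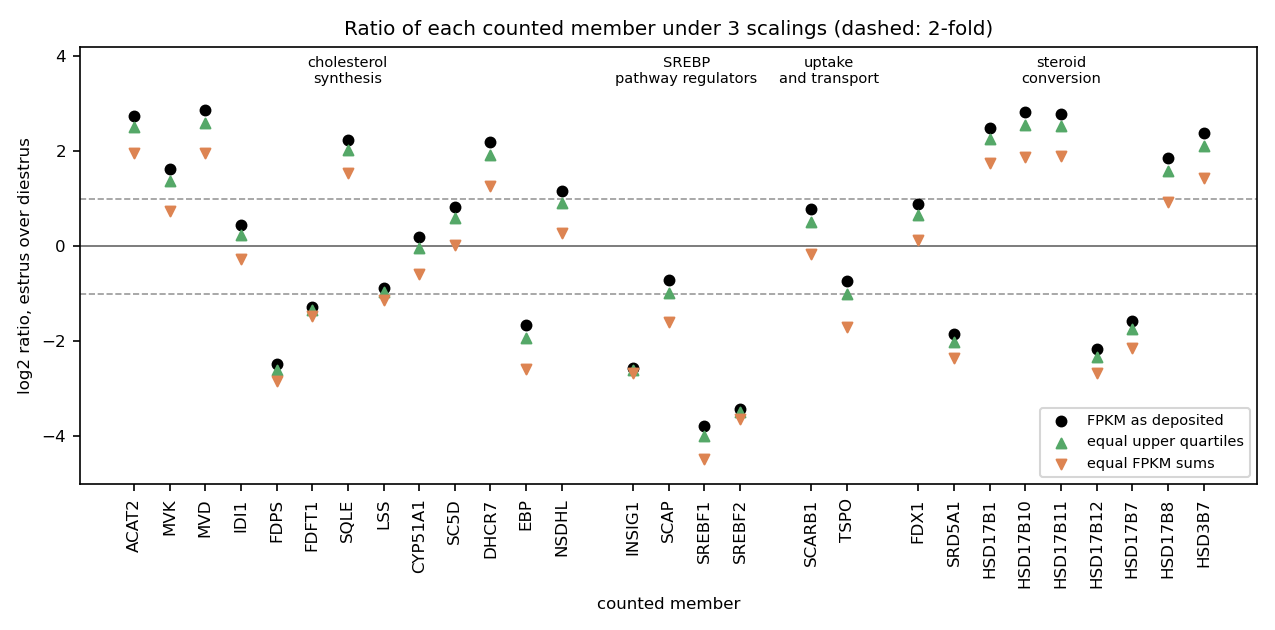
Log2 ratio of estrus over diestrus on the log2(FPKM + 1) scale for each counted gene, by role, with FPKM as deposited (black dots), with equal upper quartiles (green triangles) and with equal FPKM sums (orange inverted triangles); dashed lines mark 2-fold. The SREBP regulators lie below 0 as deposited, whereas the genes of cholesterol synthesis and of steroid conversion lie on both sides. Both rescalings scale the estrus values down, so points below 0 stay below 0.

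Cholesterol synthesis genes did not share a direction. Of 15 genes 13 were counted, of which 6 were at least 2-fold higher at estrus, 3 were lower and 4 lay between, with a median log2 ratio of 0.84. These are 46.2% higher and 23.1% lower, against 31.3% and 33.1% of all counted genes. The diestrus value lay under 3 fragments per kb in 7 of the 13, and 2 of those were listed at 0 there.

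At the start of the pathway values were low. ACAT2, which joins acetyl-CoA units in the cytosol, was listed at 5.70 FPKM at estrus and at 0 at diestrus. The ACAT2 row shares its locus with TCP1, so reads can be split between these genes. HMGCS1, which makes HMG-CoA, stood at 0.120 FPKM at estrus and 1.47 FPKM at diestrus and was not counted.

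Of the genes that act on mevalonate, MVK and MVD were at least 2-fold higher at estrus. MVK, which phosphorylates mevalonate, stood at 15.95 FPKM at estrus, against 4.47 FPKM at diestrus, a log2 ratio of 1.63 that came to 0.75 with equal FPKM sums. MVD, which turns mevalonate diphosphate into isopentenyl diphosphate, lies on chromosome 18 at 13938827 to 13945489 and stood at 23.1 FPKM at estrus, against 2.31 FPKM at diestrus. Its log2 ratio was 2.86, and the diestrus value amounts to only 1.85 fragments per kb, against 99.7 at estrus. PMVK, which acts between MVK and MVD, was not counted and was listed at 0.290 FPKM at estrus and at 0 at diestrus.

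The prenyl and squalene steps included genes of both directions. IDI1, the isomerase of isopentenyl diphosphate, stood at 3.95 FPKM at estrus and 2.61 FPKM at diestrus, within 2-fold, and its direction turned with equal FPKM sums (-0.25). FDPS, which makes farnesyl diphosphate, stood at 0.790 FPKM at estrus, against 9.01 FPKM at diestrus, a log2 ratio of -2.48. FDFT1, the squalene synthase, was also lower at estrus at 0.379 against 2.32 FPKM at diestrus, with fewer than 3 fragments per kb in both libraries. SQLE, the squalene epoxidase, was listed at 3.72 FPKM at estrus and at 0 at diestrus, which is no more than 3 fragments per kb would give at diestrus. The lower genes of these steps, FDPS and FDFT1, and the higher gene, SQLE, follow each other in the pathway.

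From lanosterol to cholesterol the directions again differed from gene to gene. LSS, which closes the rings of lanosterol, stood at 0.477 FPKM at estrus and 1.72 FPKM at diestrus, under 3 fragments per kb in both libraries. Its log2 ratio of -0.88 on the log2(FPKM + 1) scale passed 2-fold with a pseudocount of 0.1 FPKM (-1.66) and with equal FPKM sums (-1.13). CYP51A1, which demethylates lanosterol, stood at 6.45 FPKM at estrus and 5.48 FPKM at diestrus, within 2-fold. NSDHL, a dehydrogenase in the removal of methyl groups from sterols, stood at 17.8 FPKM at estrus, against 7.36 FPKM at diestrus, a log2 ratio of 1.17 that came to 0.91 with equal upper quartiles and 0.28 with equal FPKM sums. DHCR7, which carries out a last reduction of the pathway, stood at 26.1 FPKM at estrus, against 4.93 FPKM at diestrus, a log2 ratio of 2.19. SC5D, the sterol desaturase that acts before DHCR7, stood at 7.45 FPKM at estrus, against 3.73 FPKM at diestrus, a log2 ratio of 0.84 that came to 0.03 with equal FPKM sums.

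EBP, the sterol isomerase that acts before SC5D, had the highest FPKM of the 15 chosen cholesterol synthesis genes in both libraries and was lower at estrus. It lies on chromosome X at 91735333 to 91739378 and stood at 34.8 FPKM at estrus, against 112 FPKM at diestrus, a log2 ratio of -1.66. Both values rest on many fragments, at 150.1 fragments per kb at estrus and 89.7 at diestrus. EBP thus had more fragments per kb at estrus and a lower FPKM, because FPKM divides by library size.

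**Figure D3:**
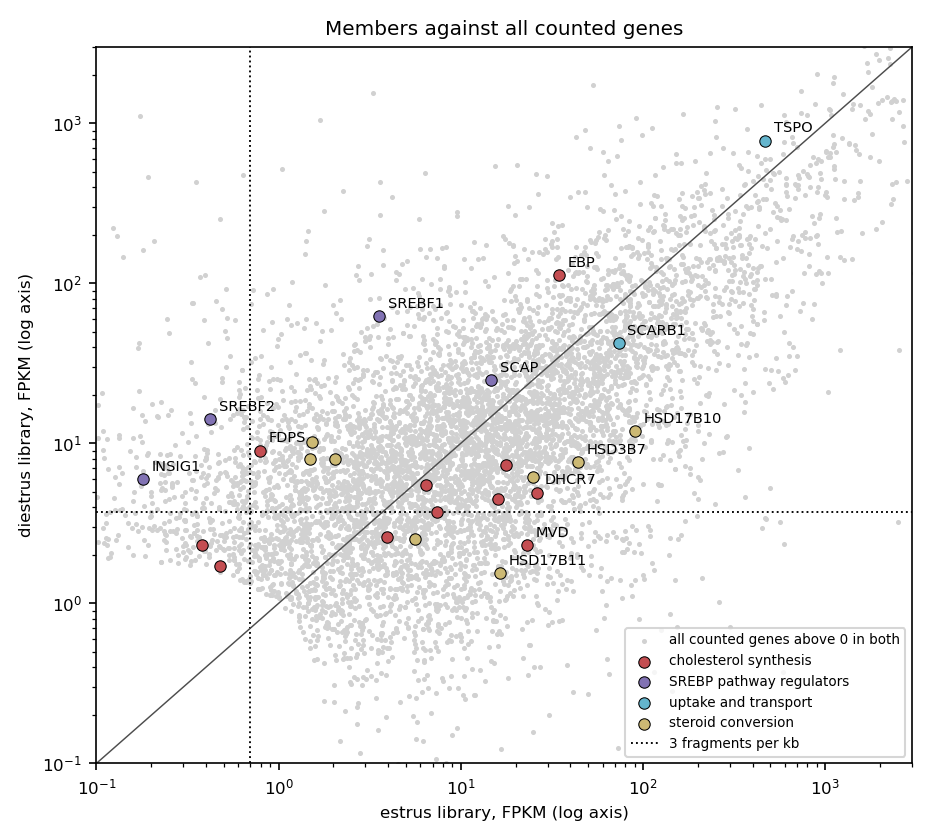
FPKM of the estrus library (horizontal, log axis) against FPKM of the diestrus library (vertical, log axis) for counted genes above 0 in both, with all genes in grey and the cholesterol and steroid genes coloured by role; the solid line marks equal values and the dotted lines mark 3 fragments per kb in each library. Genes beyond the axis limits are not drawn. SREBF1, SREBF2, INSIG1, FDPS and EBP lie above the line of equal values, and MVD and HSD17B11 lie below the dotted line of the diestrus library.

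Few other genes of sterol synthesis outside the chosen symbols were counted. Of 7 such genes with a row 6 were counted, of which 3 were at least 2-fold lower at estrus, 1 was higher and 2 lay between. Over all counted genes 33.1% were at least 2-fold lower and 31.3% higher, and 6 genes are few to set against those shares. The median log2 ratio of the 6 genes was -1.84. MSMO1, which starts the removal of sterol methyl groups that NSDHL continues, stood at 2.71 FPKM at estrus, against 128.9 FPKM at diestrus, a log2 ratio of -5.13. GGPS1, which makes geranylgeranyl diphosphate from the product of FDPS, stood at 2.29 FPKM at estrus, against 31.0 FPKM at diestrus. ACAT1, a mitochondrial thiolase, stood at 1.02 FPKM at estrus, against 12.1 FPKM at diestrus. All 3 were thus at least 2-fold lower at estrus, and TM7SF2, a sterol reductase, stood at 0.796 FPKM at estrus, against 2.57 FPKM at diestrus, a log2 ratio of -0.99 on the log2(FPKM + 1) scale. The electron donors split as deposited, with POR at 26.8 FPKM at estrus and 10.3 FPKM at diestrus, and CYB5R3 at 337 FPKM at estrus and 550 FPKM at diestrus. The log2 ratio of POR, 1.30, came to 0.39 with equal FPKM sums, and that of CYB5R3, -0.70, came to -1.66. NSDHL and MSMO1 act on the same sterols, and their values lay on opposite sides, although NSDHL was within 2-fold with equal upper quartiles and with equal FPKM sums. The median of the 13 counted genes chosen by name (0.84) and that of these 6 genes (-1.84) differ in sign as deposited. With equal FPKM sums the medians came to 0.029 for the 13 genes and -2.38 for the 6 genes. The sign of a median over pathway genes thus depends on which of them are taken.

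Both counted genes of cholesterol uptake and transport were within 2-fold. SCARB1, the receptor that takes cholesteryl esters from HDL, lies on chromosome 17 at 53180927 to 53273723 and stood at 73.9 FPKM at estrus, against 42.3 FPKM at diestrus, or 318 fragments per kb at estrus and 33.9 at diestrus. Its log2 ratio of 0.79 turned to -0.15 with equal FPKM sums. TSPO, an outer mitochondrial membrane protein that binds cholesterol, lies on chromosome 5 at 114596006 to 114608640, 1181 kb beyond SREBF2. It ranked number 254 of all rows at estrus and number 100 at diestrus, and stood at 470 FPKM at estrus, against 778 FPKM at diestrus. Its log2 ratio of -0.73 was within 2-fold and passed it with equal FPKM sums (-1.69) and, only just, with equal upper quartiles. STAR, which moves cholesterol into mitochondria at the start of hormone synthesis, was listed at 0 in both libraries.

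Other genes of cholesterol handling were spread over both directions. Of 24 with a row 16 were counted, of which 7 were at least 2-fold higher at estrus, 4 were lower and 5 lay between. That is 43.8% higher and 25% lower, against 31.3% and 33.1% of all counted genes. The median log2 ratio of the 16 genes was 0.47 and turned to -0.37 with equal FPKM sums. NPC2, the lysosomal cholesterol carrier, stood at 385 FPKM at estrus, against 111 FPKM at diestrus, and LIPA, the lysosomal cholesteryl ester lipase, at 101 FPKM at estrus, against 39.8 FPKM at diestrus. NPC2 and LIPA were thus at least 2-fold higher at estrus, although within 2-fold with equal FPKM sums. NPC1, the membrane partner of NPC2 in lysosomal cholesterol export, was within 2-fold at 4.57 FPKM at estrus and 3.43 FPKM at diestrus. The endocytic receptor LRP1 stood at 86.7 FPKM at estrus, against 38.0 FPKM at diestrus. Its log2 ratio of 1.17 came to 0.90 with equal upper quartiles and 0.22 with equal FPKM sums. CAV1, which builds cholesterol-rich caveolae, stood at 338 FPKM at estrus and 221 FPKM at diestrus, and the lipoprotein receptor VLDLR at 67.1 FPKM at estrus and 64.4 FPKM at diestrus. APOE, the lipoprotein ligand, was lower at estrus at 36.1 FPKM, against 233 FPKM at diestrus. The efflux transporters ABCA1 and ABCG1 were listed at 0 in both libraries.

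The enzymes that open hormone synthesis were at or near 0 in both libraries. CYP11A1, which cleaves the side chain of cholesterol, was listed at 0.677 FPKM at estrus and at 0 at diestrus, and CYP17A1, which leads to androgens, and CYP19A1, the aromatase that makes estrogens, were listed at 0 in both. HSD3B1, which makes progesterone, and STS, which frees sulfated steroids, were also at 0 in both. The electron carriers of CYP11A1 were low, with FDX1 at 5.61 FPKM at estrus and 2.54 FPKM at diestrus, and FDXR at 0 at estrus and 0.891 FPKM at diestrus. No enzyme of this early route reached 1 FPKM in either library apart from the carrier FDX1. The row of CYP17A1 shares a merged locus with other genes, and some zeros may be failed estimates, so none of them is read as absence.

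Marker genes of gonadal and adrenal cells were mostly at 0, but not all of them. Of 20 symbols 16 had a row, 10 of these were listed at 0 in both libraries, and the receptors LHCGR, FSHR and MC2R were among them. The zeros of STAR, CYP17A1, CYP19A1 and HSD3B1 are the same rows as above, counted again here. NR5A1, the factor that switches on steroid-forming genes, was at 0 at estrus and 5.96 FPKM at diestrus. AMH, a hormone of granulosa and Sertoli cells, was also at 0 at estrus, against 8.80 FPKM at diestrus. The ovarian transcription factor FOXL2 stood at 29.8 FPKM at estrus, against 1.32 FPKM at diestrus, and the inhibin subunit INHA at 7.17 FPKM at estrus, against 1.31 FPKM at diestrus. The diestrus values of FOXL2 and INHA lie under 3 fragments per kb, so the size of both differences is poorly determined. The list summed to 266 FPKM at estrus and 68.5 FPKM at diestrus, most of it from the activin subunit INHBA at 229 FPKM at estrus and 51.1 FPKM at diestrus, a gene that many other cells also make.

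Steroid conversion genes that were counted came mostly from the hydroxysteroid dehydrogenases. Of 24 genes 9 were counted, of which 5 were at least 2-fold higher at estrus, 3 were lower and 1 lay between, with a median log2 ratio of 1.85. These are 55.6% higher and 33.3% lower, against 31.3% and 33.1% of all counted genes. A further 6 were above 0 but under the filter and 9 were listed at 0 in both. Several of the counted dehydrogenases are known mainly for work outside hormone synthesis, so the group's name does not describe their best known roles.

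HSD17B10, a mitochondrial enzyme of isoleucine breakdown that is also part of mitochondrial RNase P, was the most abundant of them. It lies on chromosome X at 96267144 to 96269467 and stood at 91.0 FPKM at estrus, against 11.9 FPKM at diestrus, a log2 ratio of 2.83. HSD3B7, an enzyme of bile acid synthesis, lies on chromosome 25 at 27375628 to 27379103 and stood at 43.95 FPKM at estrus, against 7.64 FPKM at diestrus, a log2 ratio of 2.38. HSD17B8, an enzyme of mitochondrial fatty acid synthesis, stood at 24.9 FPKM at estrus, against 6.16 FPKM at diestrus, a log2 ratio of 1.85 that came to 0.94 with equal FPKM sums. HSD17B11, a lipid droplet enzyme, stood at 16.5 FPKM at estrus, against 1.54 FPKM at diestrus, or 71.2 fragments per kb at estrus and 1.23 at diestrus, so its diestrus level is poorly determined. These 4 genes were higher at estrus under every scaling tried.

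HSD17B1, which makes estradiol from estrone and is the counted dehydrogenase closest to estrogen synthesis, was listed at 4.61 FPKM at estrus and at 0 at diestrus. Its estrus value amounts to 19.9 fragments per kb, and the same FPKM at diestrus would be little above the level of 3 fragments per kb. A difference between the stages in HSD17B1 is therefore barely within reach of the diestrus library.

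The steroid conversion genes lower at estrus also included lipid enzymes. HSD17B12, which elongates fatty acids, stood at 1.52 FPKM at estrus, against 10.3 FPKM at diestrus, a log2 ratio of -2.16. HSD17B7, which also acts in cholesterol synthesis, in the same removal of methyl groups as NSDHL, stood at 2.04 FPKM at estrus, against 7.97 FPKM at diestrus, a log2 ratio of -1.56. SRD5A1, a steroid reductase that converts testosterone to dihydrotestosterone, stood at 1.49 FPKM at estrus, against 7.98 FPKM at diestrus, a log2 ratio of -1.85. In fragments per kb, which were worked back from FPKM, these 3 genes were close between the libraries. A like number of fragments is a smaller share of the deeper estrus library, which FPKM gives as a lower value. HSD17B12 held 6.55 fragments per kb at estrus and 8.21 at diestrus, HSD17B7 held 8.80 at estrus and 6.38 at diestrus, and SRD5A1 held 6.43 at estrus and 6.39 at diestrus.

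The remaining steroid conversion genes were close to the limit of detection or at 0. HSD11B1, which regenerates active glucocorticoid, was listed at 1.71 FPKM at estrus and at 0 at diestrus, and HSD17B4, a peroxisomal enzyme, at 1.14 FPKM at estrus and at 0 at diestrus. Each of these was thus seen at estrus only, where the reading was deeper. HSD17B14 stood at 0.518 FPKM at estrus and 1.39 FPKM at diestrus. SRD5A3, which serves protein glycosylation through dolichol, was at 0 at estrus and 1.53 FPKM at diestrus, on a merged locus. HSD11B2, which inactivates cortisol, and HSD17B2, HSD17B3, HSD17B6 and HSD17B13 were listed at 0 in both libraries, although HSD17B13 lies only 15.2 kb from HSD17B11.

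Other steroid-converting enzymes showed large differences in both directions. Of 25 with a row 12 were counted, of which 7 were at least 2-fold higher at estrus, 4 were lower and 1 lay between. That is 58.3% higher and 33.3% lower, against 31.3% and 33.1% of all counted genes. The median log2 ratio of the 12 genes was 1.40, and 9 of the 12 had a diestrus value under 3 fragments per kb. CYP3A4, an oxidase of steroids and drugs, stood at 29.7 FPKM at estrus, against 469 FPKM at diestrus, a log2 ratio of -3.94. HSD11B1L, a relative of HSD11B1, stood at 87.2 FPKM at estrus, against 9.22 FPKM at diestrus, and CYP27A1, the mitochondrial sterol hydroxylase, at 31.8 FPKM at estrus, against 0.769 FPKM at diestrus. DHRS11, a reductase of the same superfamily, lay within 2-fold at 20.4 FPKM at estrus and 10.2 FPKM at diestrus. DHRS9 was listed at 11.9 FPKM at estrus and at 0 at diestrus, and CYP1A1, which hydroxylates estrogens, at 10.8 FPKM at estrus and 0.756 FPKM at diestrus.

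**Figure D4:**
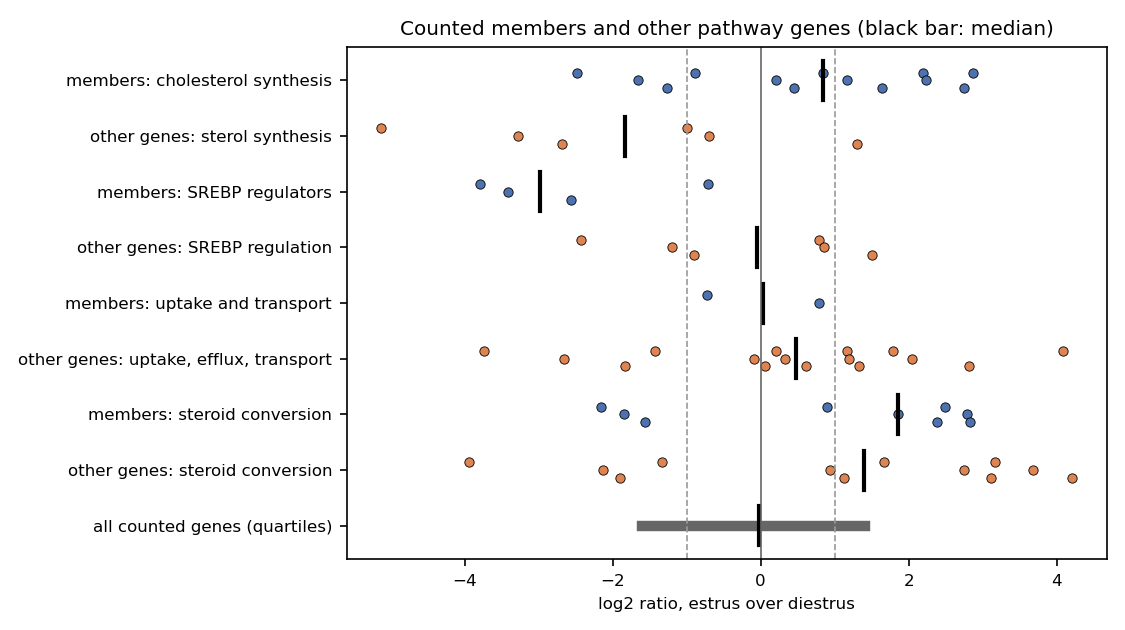
Log2 ratio of estrus over diestrus on the log2(FPKM + 1) scale for the counted genes chosen by name (blue) and for other genes of the same pathways (orange), 1 dot per gene, with black bars at the medians and, in the lowest row, the quartiles of all counted genes from -1.60 to 1.41. The genes chosen by name among the SREBP regulators have the lowest median, -2.99.

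Of the 46 genes 3 had a p-value under 1 in the authors' deposited table and 0 were called there, where 3.91% of the 1253 genes with such a p-value were called at an unadjusted p-value under 0.05. The authors' deposited table gave HSD17B10 a p-value of 0.435, EBP 0.572 and TSPO 0.773, with q-values of 0.797, 0.797 and 0.825. It gave the other 43 genes, SREBF1, SREBF2 and INSIG1 among them, a p-value of 1. Genes listed at 0 in both libraries, such as STAR, carry the same value, so it can stand for a test that was not made. It is therefore not read as a finding of no difference. At 3 fragments per kb or more in both libraries, 16 genes were left, of which 6 were at least 2-fold higher at estrus, 6 were lower and 4 lay between. The share of all genes was not taken under this filter, so these counts have no background beside them.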

How the data were processed

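Cell-free total RNA of saliva from Murrah buffalo was sequenced in 1 estrus and 1 diestrus library, prepared, per the labels' protocols, with an Illumina TruSeq RNA kit. TopHat, Bowtie, Cufflinks and Cuffdiff are named in the submitters' processing notes, but no source used here gives their versions, their parameters or the genome build. The authors deposited FPKM per gene and library, per the file headers, and no source used here tells whether they also rescaled one library to the other. Their deposited log2 fold change runs diestrus over estrus, as checked on 7344 genes within 0.001, and was not used. The authors' deposited p-values and q-values were copied. Mapping to a related genome, paralogs and merged loci can move a gene's FPKM.

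Genes were matched by symbol, and stage was taken from the labels. Starts are printed counting from 1, because 120 of 124 short olfactory receptor spans were multiples of 3 when starts were read from 0. Ratios used a pseudocount of 1 FPKM, a filter at a mean of 1 FPKM and a 2-fold call, in Python 3.11.15 with pandas 2.3.3. Fragment steps were sought on loci of 400 to 3000 bp, with spans shortened by 185 bp, within 0.5% of 1 to 3 fragments, and 40 loci in estrus and 107 in diestrus lay on the best step, where other steps held a median of 2. Simulated steps over 20905 genes were recovered within 0.116%. Absolute depth is unknown, so no counting intervals are given. The rule for named genes took every counted member and up to 6 counted genes of highest mean per list, and further genes (ABCA1, ABCG1, NPC1, TCP1 and marker genes) were named after their values were seen. The members and lists were chosen with earlier results of these data known. Alternatives changed the pseudocount, filter, treatment of zeros, scaling and depth. Some genes of the pathway lists are not reported here and were left out of the list counts. No reference sequences of these genes were used here.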

Additional observations from a re-analysis of the deposited data

How the results depend on the processing

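With 1 library per stage no replicate could be left out. No paired analysis was possible because each stage has 1 library. Medians of log2 ratios are given below where they or a count of 2-fold genes shifted by over 1.5-fold. For the SREBP regulators the median of -2.99 was -4.26 with a pseudocount of 0.1 FPKM, -0.93 with 10 FPKM and -2.25 with a filter at a mean of 10 FPKM, where 2 genes were left. For cholesterol synthesis the median of 0.84 was 0.35 with a pseudocount of 10 FPKM, 1.63 with a filter at a mean of 10 FPKM and 0.029 with equal FPKM sums, where 4 genes were higher and 4 lower. For steroid conversion the median of 1.85 was 0.55 with a pseudocount of 10 FPKM, 0.90 with no filter, 2.38 with a filter at a mean of 10 FPKM and 0.94 with equal FPKM sums. For uptake and transport, with 2 counted genes on opposite sides, the median of 0.03 turned to -0.018 with a pseudocount of 10 FPKM, -0.24 with equal upper quartiles and -0.92 with equal FPKM sums. Over all counted genes the median of -0.02 turned to 0.51 with a filter at a mean of 10 FPKM, 0.13 among genes above 0 in both libraries and 0.27 where the higher value reached 3 fragments per kb. It was -0.25 with equal upper quartiles and -0.80 with equal FPKM sums, and -0.0070 with a pseudocount of 10 FPKM, and with equal sums 19.1% of genes were higher and 45.9% lower. No member called 2-fold apart changed its direction under these alternatives, but for most of them this was fixed in advance. A pseudocount or a filter cannot turn a direction, and both rescalings only scale the estrus values down. Only the 11 members called higher at estrus could have turned, and only under the rescalings. Of the 28 counted genes 11 changed side of the 2-fold line with a pseudocount of 10 FPKM, 6 with equal FPKM sums, 2 with equal upper quartiles and 2 with a pseudocount of 0.1 FPKM. The cause of these changes was not tested. Values at diestrus are limited by the shallower library.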
